A study of Mus musculus with 9 samples.

Results

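The Slc25 genes code for the mitochondrial carriers, and 47 of them were described here across sham heart and sham quadriceps muscle of the mouse. They were chosen by symbol: every gene of the deposited quadriceps and heart table whose name is Slc25a followed by a number, which are 47 of 24537 gene names and 70 of 35745 transcripts. Where a gene has several transcripts, the transcript with the highest summed count stands for it. Wild-type C57Bl6 mice had sham surgery at 8 weeks of age, and the tissues were taken 12 weeks later, with 3 libraries of sham heart and 3 of sham quadriceps. The methods describe male mice of the C57Bl/6JCrl substrain. The study's remaining group, quadriceps after transverse aortic constriction (TAC, a narrowing of the aorta that overloads the heart), lies in a table of 587 genes that lists 0 of the 47 carriers, so that TAC was not analysed here for them. All mice were operated and none was an unoperated control, and whole tissue was sequenced, so that a lower value can come from fewer cells of a type or from less RNA per cell, and these cannot be told apart.

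The inner mitochondrial membrane lets few solutes through, and Slc25 carriers move most of those that must cross it: ADP and ATP, phosphate, amino acids, di- and tricarboxylates, acylcarnitines, cofactors and metals. A carrier of this family is built from repeats of one membrane unit and usually exchanges a substrate on one side for a substrate on the other. Heart muscle works without pause and burns mainly fatty acids, whereas mouse quadriceps consists largely of fast fibres that draw more on glycolysis. Several carriers come as pairs of closely related genes whose use differs between tissues, such as the ADP/ATP carriers Slc25a4 and Slc25a5 and the aspartate/glutamate carriers Slc25a12 and Slc25a13.

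The carriers that differed most between the tissues were Slc25a13, lower in quadriceps, and Slc25a25, higher in quadriceps, and the stretches around their annotated starts are shown here with that of Slc25a12, the paired gene of Slc25a13. The sequences are those of RefSeq for the build GRCm38.p6, each with 250 bases before and 50 bases after the start, written in the direction of the gene, and 36 of the 47 carriers have an entry of this kind. Capitals mark a cyclic AMP response element (TGACGTCA) in the first and an E-box (CACGTG) in the third, and the second holds neither. The first lies on the minus strand at chr2:32424017-32424316 and is one of 3 annotated starts of Slc25a25, inside the longer transcripts of that gene. The second, at chr2:71367706-71368005, and the third, at chr6:6217124-6217423, also lie on the minus strand.
Slc25a25: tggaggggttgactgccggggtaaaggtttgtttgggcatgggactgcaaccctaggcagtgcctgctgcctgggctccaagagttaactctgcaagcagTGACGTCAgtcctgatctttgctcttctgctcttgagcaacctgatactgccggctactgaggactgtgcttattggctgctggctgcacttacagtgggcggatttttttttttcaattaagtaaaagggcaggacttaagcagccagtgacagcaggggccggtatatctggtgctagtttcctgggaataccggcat
Slc25a12: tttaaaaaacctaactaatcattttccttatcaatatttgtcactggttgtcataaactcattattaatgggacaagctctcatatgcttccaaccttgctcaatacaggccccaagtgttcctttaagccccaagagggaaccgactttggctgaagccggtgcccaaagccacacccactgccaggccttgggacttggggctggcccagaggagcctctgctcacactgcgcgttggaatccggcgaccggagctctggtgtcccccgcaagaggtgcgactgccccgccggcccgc
Slc25a13: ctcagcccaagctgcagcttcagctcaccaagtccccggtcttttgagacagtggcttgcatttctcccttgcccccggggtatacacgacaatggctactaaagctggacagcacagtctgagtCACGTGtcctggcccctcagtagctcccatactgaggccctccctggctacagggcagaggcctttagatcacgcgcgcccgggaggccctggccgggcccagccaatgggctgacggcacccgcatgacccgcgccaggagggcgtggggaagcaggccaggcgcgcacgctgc
The 36 carriers with an entry have 46 promoters, since some have several. Searched on both strands, the letters TGACGTCA stand in 1.79% of 32851 promoters of the same length and in 2 of these 46, from the carriers Slc25a25 and Slc25a36. The letters CACGTG stand in 7.15% of all promoters and in 8 of the 46, from 7 carriers, Slc25a1, Slc25a13, Slc25a14, Slc25a15, Slc25a31, Slc25a33 and Slc25a36. AAGGTCA, the letters bound by estrogen-related receptors, stand in 4.72% of all promoters and in 1 of the 46, from Slc25a34. The GC box GGGCGG stands in 35.7% of all promoters and in 38 of the 46, from 30 carriers. These include Slc25a25 but neither Slc25a12 nor Slc25a13. The motifs were chosen with the expression values known, and a match is a description of the letters only.

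The 6 libraries held 23383452 to 38382751 counts each. Levels of different genes were compared in RPKM, reads divided by the length of the transcript and the total of its library, which are per length. Differences between the tissues were tested on TMM-scaled raw counts by the quasi-likelihood test of edgeR, with Benjamini-Hochberg adjustment over all 24280 transcripts tested, and are given as log2 fold changes of quadriceps against heart, positive where quadriceps was higher. CPM values here are counts scaled to the TMM library size. The scaling matters in this comparison: the median log2 fold change of all transcripts was -0.06 with TMM and -0.80 with library totals, the scale that RPKM also uses, and the 10 largest transcripts took 11.5% to 12.0% of the counts in heart and 15.6% to 18.5% in quadriceps. The tissue labels fit their defining markers, since all 6 cardiomyocyte genes were higher in heart and all 6 fast-fibre genes were higher in quadriceps. The heart libraries differed in Myl7, the atrial myosin light chain, at 96.4, 7.35 and 0.156 RPKM, and its part in the results was not tested. In quadriceps the summed RPKM of 4 adipocyte markers was 41.3, 14.0 and 5.14, against 0.305 to 1.09 in heart. Summed endothelial markers were higher in heart, at 146 to 164 RPKM against 25.6 to 34.8, and their part was not tested either. Whether heart and quadriceps libraries were made together is not given in the sources used here, so that a difference in handling and the tissue cannot be told apart, and nothing says that libraries of the same number come from 1 mouse.

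Of the 47 carriers, 41 passed the count filter, over 5 counts in 2 or more libraries, and were tested. At an adjusted p under 0.05, 18 were higher in quadriceps (43.9% of the 41) and 14 higher in heart (34.1%), 32 in all (78.0%), while 9 did not pass. Of all transcripts tested, 32.2% were higher in quadriceps and 34.4% higher in heart by this rule, 66.6% in all. A difference of at least 2-fold was found for 7 carriers in favour of quadriceps and 9 in favour of heart, where the background is 16.0% and 20.5%. By the study's threshold, an unadjusted p under 0.05 and a log2 fold change over 2, only Slc25a25 among the carriers was higher in quadriceps, and Slc25a13, Slc25a31, Slc25a5 and Slc25a34 were higher in heart, with 7.0% and 8.64% of all transcripts past it. The CPM of all quadriceps libraries lay above all heart libraries for 18 carriers and below them for 16, and the groups overlapped for 7; the background of such separation is 34.2% and 38.3%. The median log2 fold change was 0.17 over the 41 carriers and -0.06 over all transcripts. Slc25a18, Slc25a31 and Slc25a53 passed the count filter only through their heart libraries. Without them 13 of 38 carriers were higher in heart, 8 by at least 2-fold and 3 past the study's threshold, and the median of the carriers was 0.31. Slc25a31 and Slc25a53 are among the 16 carriers whose quadriceps libraries all lay below all heart libraries, and Slc25a18 is among the 7 that overlapped.

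**Figure D1:**
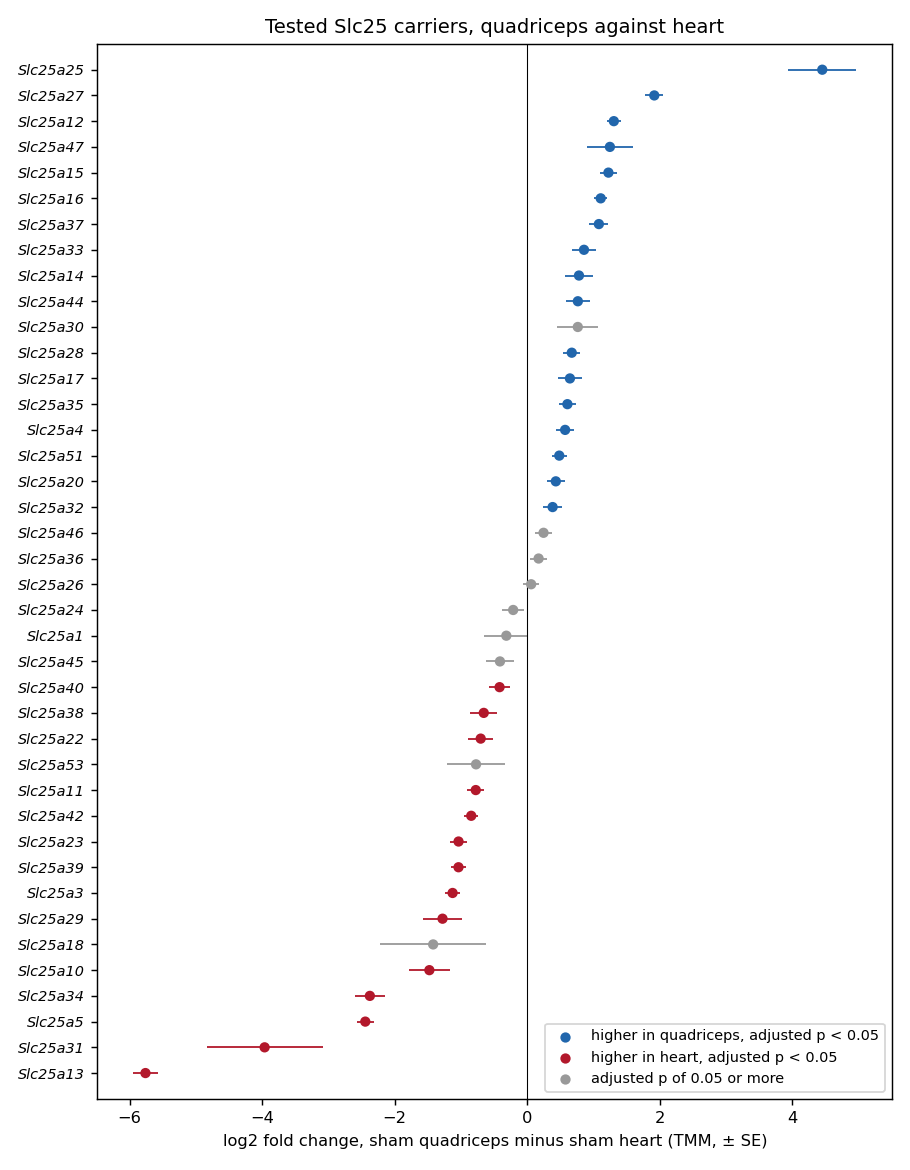
Log2 fold change of the tested Slc25 carriers reported here (x axis, quadriceps minus heart, TMM-scaled, with SE), one gene per row, coloured by the adjusted p of edgeR's quasi-likelihood test. The values run from -5.76 for Slc25a13 to 4.45 for Slc25a25, and most others lie within 2 log2 units of 0.

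The direction of the smaller differences depends on the scaling. With library totals 6 carriers were called higher in quadriceps and 22 higher in heart, where 13.3% and 62.6% of all transcripts were called. The 22 include Slc25a18, Slc25a31 and Slc25a53, which passed the count filter only through heart. The 6 carriers higher in quadriceps with both scalings were Slc25a12, Slc25a15, Slc25a16, Slc25a25, Slc25a27 and Slc25a37. All 14 carriers that were higher in heart with TMM were also higher in heart with library totals. For 12 carriers with small differences the sign changed: Slc25a4, Slc25a17, Slc25a20, Slc25a26, Slc25a28, Slc25a30, Slc25a32, Slc25a35, Slc25a36, Slc25a44, Slc25a46 and Slc25a51. Of these 12, 8 had been called higher in quadriceps with TMM. Across all the alternatives in which a carrier could be tested, 5 carriers kept an adjusted p under 0.05 in favour of quadriceps (Slc25a12, Slc25a15, Slc25a16, Slc25a25 and Slc25a27) and 11 in favour of heart (Slc25a3, Slc25a5, Slc25a10, Slc25a11, Slc25a13, Slc25a22, Slc25a23, Slc25a29, Slc25a34, Slc25a39 and Slc25a42). Slc25a31, tested only through heart, also kept its call wherever it could be tested. The carriers not called with TMM that were higher in heart with library totals were Slc25a1, Slc25a18, Slc25a24, Slc25a26, Slc25a36, Slc25a45, Slc25a46 and Slc25a53.

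The ADP/ATP carriers, which bring ADP into the mitochondrion and ATP out of it, were dominated by Slc25a4 in both tissues. In heart its level was 2993, 2919 and 3098 RPKM, and in quadriceps 3110, 2583 and 2280. These ranges overlap on the scale of library totals, although the TMM-scaled CPM do not, at 2562, 2449 and 2627 in heart and 4107, 3919 and 3314 in quadriceps. The log2 fold change of Slc25a4 was 0.57 ± 0.14 (SE, n = 3 per tissue, adjusted p = 0.00552 with edgeR), and -0.18 with library totals (adjusted p = 0.289), so that its direction is set by the scaling. Within each library, where no scaling enters, Slc25a4 made up 80.6% ± 0.13 (SD, n = 3) of the summed RPKM of all Slc25 carriers in heart and 88.4% ± 1.08 in quadriceps. The summed RPKM of the family was 3618 to 3839 in heart and 2603 to 3471 in quadriceps, and without Slc25a4 it was 699 to 741 in heart and 323 to 361 in quadriceps.

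Slc25a5, the ADP/ATP carrier found in most growing cells, was at 26.0, 25.5 and 23.6 RPKM in heart and 3.40, 2.49 and 2.29 in quadriceps. Every heart library lay above every quadriceps library, and the log2 fold change was -2.44 ± 0.13 (adjusted p = 2.75e-07). Within a library, Slc25a4 exceeded Slc25a5 by 115, 115 and 131 times in heart and by 915, 1036 and 996 times in quadriceps. The log2 ratio of the pair was thus 3.03 higher in quadriceps (exact two-sided permutation test, p = 0.1, n = 3 per tissue). For 3 against 3 libraries 0.1 is the smallest p this test can give, and 0.1 remained after adjustment over the 7 pairs of carriers compared. Of the 50-base windows of the Slc25a5 transcript, 46.6% also occur in transcripts of other genes, among them processed pseudogenes, and how reads with several positions were counted is not given in the sources used here, so that the level of Slc25a5 is uncertain. Slc25a31, an ADP/ATP carrier known from the testis, was counted 10, 12 and 17 times in heart but 0, 1 and 0 times in quadriceps. With so few reads the ratio of heart to quadriceps, after TMM scaling, was 19.0 with an exact 95% interval of 3.22 to 771, which covers counting error only.

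**Figure D2:**
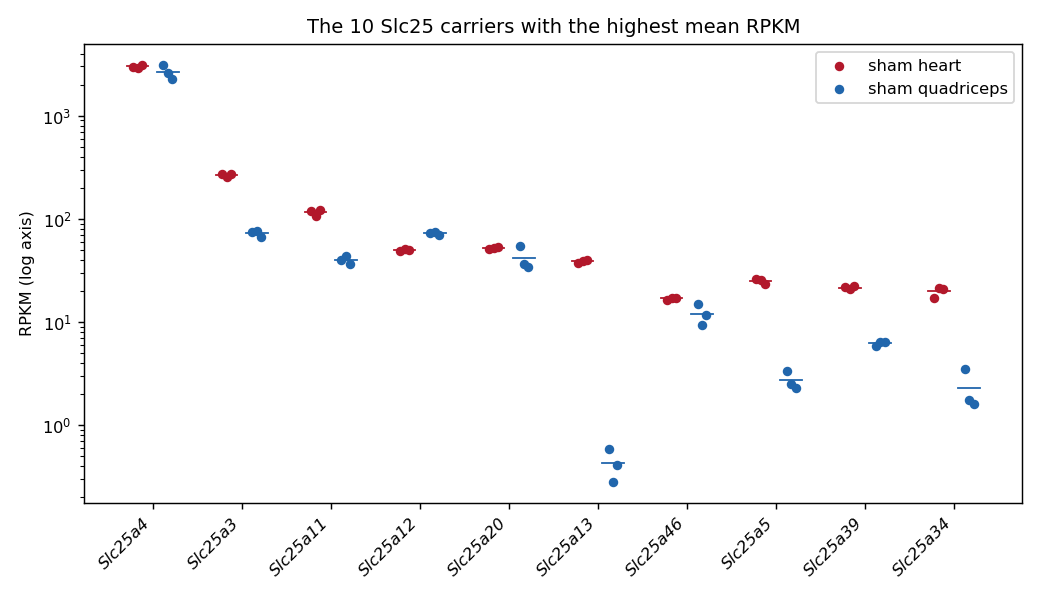
RPKM (log axis) of the 10 Slc25 carriers with the highest mean over the 6 libraries, with each library as a point and the group mean as a bar. Slc25a4 lies between 2280 and 3110 RPKM in all libraries, and Slc25a13 lies at 37.8 to 40.1 RPKM in heart and 0.284 to 0.593 in quadriceps.

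Phosphate for ATP synthesis enters through Slc25a3, the second most abundant carrier in heart. Slc25a3 was at 275, 254 and 275 RPKM in heart and 74.4, 77.2 and 66.5 in quadriceps, and the log2 fold change was -1.13 ± 0.12 (adjusted p = 2.39e-05). It took 7.19% ± 0.18 of the family's summed RPKM in heart and 2.44% ± 0.26 in quadriceps. Of the carriers that supply the ATP synthase, Slc25a4 thus took a larger share in quadriceps and Slc25a3 a smaller one. Shares of one sum are bound to each other, and a larger share of Slc25a4 lowers those of the others. The log2 fold changes of Slc25a4 and Slc25a3 were 0.57 and -1.13 with TMM, but -0.18 and -1.88 with library totals.

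The calcium-sensitive carriers of ATP-Mg and phosphate, which change the total adenine nucleotide content of the mitochondrion, could be tested for 3 genes, of which 1 was higher in quadriceps, 1 was higher in heart and 1 did not pass with TMM. Slc25a25 had the largest log2 fold change in favour of quadriceps of the carriers tested. The heart libraries held 102, 114 and 102 counts of Slc25a25, the quadriceps libraries 421, 1782 and 1038, or 0.870, 0.939 and 0.974 RPKM against 4.08, 17.1 and 14.0. All quadriceps libraries lay above all heart libraries, but the first lay far below the other quadriceps libraries. The log2 fold change was 4.45 ± 0.51 (adjusted p = 4.94e-05), and it ranged from 4.02 to 4.91 when single libraries were left out. By RPKM, Slc25a25 ranked 36 of the 47 carriers in heart and 7 in quadriceps. Slc25a23, a carrier with the same substrates, went the other way, at 14.4, 13.8 and 12.7 RPKM in heart and 3.71, 3.48 and 4.63 in quadriceps (log2 fold change -1.04 ± 0.13, adjusted p = 1.0e-04). The ratio of Slc25a25 to Slc25a23 within a library was 0.0605, 0.0682 and 0.0769 in heart and 1.10, 4.90 and 3.03 in quadriceps, a log2 difference of 5.22 (exact permutation test, p = 0.1). Slc25a24, the third of these carriers, was at 1.95 to 2.31 RPKM in heart and 0.773 to 1.27 in quadriceps, and with a log2 fold change of -0.21 ± 0.17 it did not pass (adjusted p = 0.281), though with library totals it did (-0.96, adjusted p = 0.00209). Slc25a41 had at most 2 counts in any library and was not tested.

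The annotated transcripts of Slc25a25 differed in their counts. The transcript that stands for the gene, NM_001290558, begins in GENCODE at an exon at chr2:32423794-32424005, next to the stretch with the cyclic AMP response element printed above. NM_146118 begins with an exon at chr2:32451067-32451422, and it has a short exon at chr2:32420656-32420691 that NM_001290558 lacks in these models. The counted RefSeq transcripts are 3163 and 3329 bases long. In heart NM_001290558 held 102, 114 and 102 counts against 106, 118 and 106 of NM_146118, so that the former was lower by 4 counts in each library. In quadriceps NM_001290558 held 421, 1782 and 1038 counts and NM_146118 held 362, 1549 and 900. It thus exceeded NM_146118 by 59, 233 and 138 counts, or 16.3%, 15.0% and 15.3%. Counts on shared exons enter both transcripts, and reads across splice junctions were not analysed here. None of the 50-base windows of NM_001290558, cut from its GENCODE model of 2541 bases, occurs in a transcript of another gene. Of the windows of the gene's other transcripts up to 10.2% do. Naif1 overlaps the gene on the opposite strand, and the strand setting of the counting is not given in the sources used here. All 4 transcripts of Slc25a25 gave log2 fold changes within 0.26 of each other.

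The aspartate/glutamate carriers, which drive the malate-aspartate shuttle that brings the electrons of cytosolic NADH into the mitochondrion, held the most extreme difference. Slc25a13 (citrin, chr6:6041218-6217173) was counted 4336, 4691 and 4110 times in heart but 60, 29 and 30 times in quadriceps, or 37.8, 39.4 and 40.1 RPKM against 0.593, 0.284 and 0.414. The groups lay far apart, with a log2 fold change of -5.76 ± 0.18 (adjusted p = 1.14e-08), which is a 54.2-fold higher level in heart. Slc25a12 (aralar, chr2:71271063-71367749) was higher in quadriceps, at 73.0, 75.3 and 69.9 RPKM against 48.6, 50.6 and 49.8, with a log2 fold change of 1.30 ± 0.11 (adjusted p = 4.98e-06). Both carriers do the same exchange, and heart held them at like levels: Slc25a13 was 43.7%, 43.8% and 44.6% of the pair's reads per length in the heart libraries. In quadriceps it was 0.806%, 0.375% and 0.589%. The log2 ratio of Slc25a12 to Slc25a13 differed by 7.12 between the tissues (exact permutation test, p = 0.1), the largest difference of the 7 pairs. By RPKM, Slc25a13 ranked 6 of the 47 carriers in heart and 35 in quadriceps.

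The glutamate carriers had far fewer reads. Slc25a22 was at 2.43 to 2.84 RPKM in heart and 0.753 to 1.37 in quadriceps, with a log2 fold change of -0.70 ± 0.19 (adjusted p = 0.00912). Slc25a18, at 6, 9 and 8 counts in heart against 1, 0 and 3 in quadriceps, did not pass (adjusted p = 0.142).

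Slc25a11, the oxoglutarate/malate carrier and the other carrier of the malate-aspartate shuttle, was at 120 RPKM in the first heart library, 106 in the second and 123 in the third, against 39.8, 43.9 and 36.4 in quadriceps. All heart libraries lay above all quadriceps libraries (log2 fold change -0.78 ± 0.13, adjusted p = 0.000489). The enzymes of the shuttle, Got1, Got2, Mdh1 and Mdh2, were all 4 higher in heart, with log2 fold changes from -0.83 for Mdh1 to -0.41 for Mdh2. The glycerol phosphate shuttle is the other route for cytosolic electrons and needs no Slc25 carrier. Its enzymes were both higher in quadriceps, Gpd1 by 4.25 ± 0.21 and Gpd2 by 4.26 ± 0.11 on the log2 scale (adjusted p = 2.1e-07 and 3.9e-09). Gpd2, the mitochondrial enzyme, was at 2.29 to 2.37 RPKM in heart and 25.6 to 27.1 in quadriceps.

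Other carboxylate carriers were weakly expressed. Slc25a10, the dicarboxylate carrier, was at 1.16, 1.52 and 1.52 RPKM in heart and 0.476, 0.266 and 0.129 in quadriceps, with a log2 fold change of -1.48 ± 0.31 (adjusted p = 0.00212). Of the 50-base windows of its GENCODE transcript, 9.07% also occur in Gm11788, which overlaps it on the opposite strand. That transcript has 2023 bases and the counted RefSeq transcript 3987. Slc25a1, the citrate carrier that supplies fatty acid synthesis, was at 1.60, 1.23 and 1.79 RPKM in heart and 1.21, 0.600 and 0.359 in quadriceps, and its CPM overlapped (log2 fold change -0.32 ± 0.33, adjusted p = 0.418, and -1.05 with library totals, adjusted p = 0.0315). In quadriceps both carriers were highest in the first library and lowest in the third, the order of the adipocyte markers given above. By RPKM many other tested carriers had this order too: Slc25a4, Slc25a5, Slc25a15, Slc25a17, Slc25a20, Slc25a26, Slc25a34, Slc25a42, Slc25a45 and Slc25a51. The part of the adipocytes in these values was not tested. Without the first quadriceps library Slc25a1 passed in favour of heart, at -0.79 (adjusted p = 0.0417). Slc25a21, the oxodicarboxylate carrier, had at most 2 counts in a library and was not tested.

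Acylcarnitines enter the matrix for fatty acid oxidation through Slc25a20. It was at 51.1, 51.7 and 53.5 RPKM in heart and 55.0, 36.9 and 34.2 in quadriceps, which overlap. Its CPM were 70.5, 69.9 and 73.1 in heart and 117, 90.2 and 80.1 in quadriceps, which do not. The log2 fold change of 0.43 ± 0.14 (adjusted p = 0.0208) did not pass without any one of the 3 heart libraries, at an adjusted p of 0.0662, 0.0694 and 0.0502, and was -0.31 with library totals. As a share of the family's summed RPKM, Slc25a20 was 1.40% ± 0.03 in heart and 1.39% ± 0.18 in quadriceps. The 4 enzymes of the carnitine shuttle were all higher in heart, with Cpt1a, one of the forms of the enzyme that makes acylcarnitines, at -2.45 ± 0.13 (adjusted p = 3.4e-07), and Cpt1b, the muscle form, at -0.68 ± 0.10 (adjusted p = 0.00023).

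**Figure D3:**
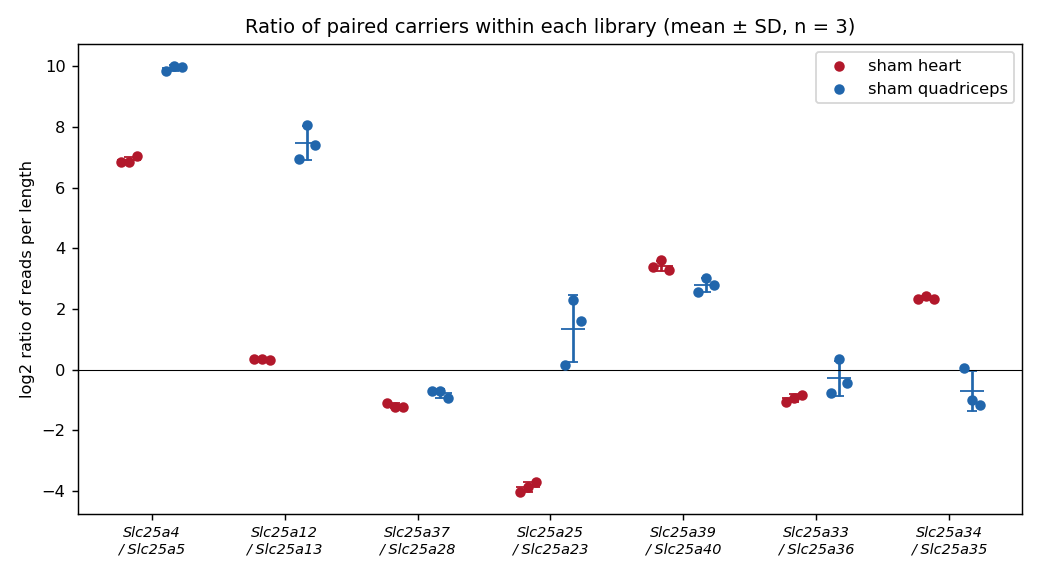
Log2 ratio of reads per length (y axis) of 7 pairs of related Slc25 carriers within each library, with points for libraries and bars for mean and SD (n = 3). The quadriceps libraries lie apart from the heart libraries for every pair. The group means differ by 7.12 for Slc25a12 to Slc25a13 and by 0.40 for Slc25a37 to Slc25a28.

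Amino acid carriers split between the tissues. Slc25a15, the ornithine carrier, was higher in quadriceps (1.95, 2.41 and 2.52 RPKM in heart, 3.38, 3.17 and 2.99 in quadriceps), with a log2 fold change of 1.22 ± 0.12 (adjusted p = 1.95e-05). Slc25a44, which carries branched-chain amino acids, was at 3.47 to 4.07 RPKM in heart and 3.13 to 4.56 in quadriceps, and its log2 fold change of 0.76 ± 0.18 became -0.0023 with library totals. Of the genes of branched-chain amino acid breakdown downstream of it, Bckdha, Bckdhb and Dbt were higher in heart and Bcat2 did not pass (log2 fold change -0.15, adjusted p = 0.34), whereas all 4 passed in favour of heart with library totals. Slc25a38, the glycine carrier needed for heme synthesis, was higher in heart by 0.66 ± 0.20 on the log2 scale (adjusted p = 0.0171), but not without the first heart library (adjusted p = 0.0603) or the third quadriceps library (adjusted p = 0.0579). The erythroid markers, from Hba-a1 to Alas2, were all 7 higher in heart, and the part of erythroid cells was not tested. The 7 are not separate measurements, since Hba-a1 and Hba-a2 held the same counts in every library. Slc25a2, a second ornithine carrier, had at most 4 counts in a library and was not tested.

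Slc25a29, a carrier of basic amino acids, and Slc25a47 lie next to each other on chromosome 12 and point away from each other. Slc25a29 ends the stretch chr12:108825873-108835883 on the minus strand, and Slc25a47 begins 162 bases further on the plus strand, at chr12:108836046-108856815. Heart gave 95, 73 and 77 counts of Slc25a29 against 22, 10 and 17 from quadriceps. For Slc25a47 these were 17, 10 and 11 against 16, 14 and 14. The neighbours differed in opposite directions: the log2 fold change was -1.28 ± 0.29 for Slc25a29 (adjusted p = 0.00349) and 1.25 ± 0.34 for Slc25a47 (adjusted p = 0.0100). With library totals Slc25a47 no longer passed (0.50, adjusted p = 0.198). This pair was picked out after its values were seen.

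Of 9 tested carriers of cofactors and nucleotides, 6 were higher in quadriceps with TMM, 1 was higher in heart and 2 did not pass, with a median log2 fold change of 0.48, where 32.2% and 34.4% of all transcripts were called. With library totals 1 was higher in quadriceps and 3 in heart, with a median of -0.27, so that the sign of the median rests on the scaling. Slc25a16, which has been linked to coenzyme A, was at 6.85, 7.72 and 7.84 RPKM in heart and 9.97, 9.28 and 9.40 in quadriceps (log2 fold change 1.11 ± 0.10, adjusted p = 8.26e-06). Slc25a42, which carries coenzyme A, differed the other way and was at 9.26, 10.03 and 9.71 RPKM in heart and 3.54, 3.28 and 2.75 in quadriceps (log2 fold change -0.85 ± 0.11, adjusted p = 0.000105). The 2 carriers thus changed rank between the tissues, with Slc25a42 above Slc25a16 in every heart library and below it in every quadriceps library. Slc25a51, which brings NAD into mitochondria, was at 6.72 to 7.37 RPKM in heart and 5.07 to 6.32 in quadriceps, with a log2 fold change of 0.48 ± 0.11 that turned to -0.27 with library totals. Slc25a17, a carrier of peroxisomes, and Slc25a32, the folate carrier, also turned, from 0.64 and 0.38 to -0.09 and -0.36, and the call of Slc25a32 (adjusted p = 0.0375 with TMM) was lost without any one library except the second of quadriceps, at an adjusted p of up to 0.120. Slc25a26, which carries S-adenosylmethionine, did not pass with TMM (log2 fold change 0.06 ± 0.12, adjusted p = 0.675).

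The pyrimidine nucleotide carriers Slc25a33 and Slc25a36 supply the mitochondrial genome with building blocks. Slc25a33 was at 3.89, 3.79 and 4.59 RPKM in heart and 3.90, 5.32 and 3.82 in quadriceps. Slc25a36 was at 8.24, 7.32 and 8.13 RPKM in heart and 6.63, 4.14 and 5.18 in quadriceps. Slc25a36 lay above Slc25a33 in all but the second quadriceps library, and the ratio of Slc25a33 to Slc25a36 within a library was 0.472, 0.519 and 0.565 in heart and 0.588, 1.29 and 0.737 in quadriceps. The log2 ratio was 0.67 higher in quadriceps (exact permutation test, p = 0.1). Some 12.6% of the 50-base windows of Slc25a33 and 11.8% of those of Slc25a36 occur in transcripts of other genes. The windows were cut from GENCODE transcripts. For Slc25a36 that transcript has 5227 bases and the counted RefSeq transcript 3052, so that some windows lie outside the counted sequence. The log2 fold change was 0.85 ± 0.18 for Slc25a33 (adjusted p = 0.00209, and 0.09 with library totals, adjusted p = 0.603) and 0.17 ± 0.13 for Slc25a36 (adjusted p = 0.281).

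Both iron carriers, or mitoferrins, were higher in quadriceps with TMM. Slc25a37 was at 3.10, 2.85 and 2.83 RPKM in heart and 3.52, 4.22 and 3.22 in quadriceps (log2 fold change 1.08 ± 0.14, adjusted p = 0.000116). Slc25a28 was at 6.60, 6.66 and 6.66 RPKM in heart and 5.71, 6.82 and 6.21 in quadriceps (log2 fold change 0.67 ± 0.13, adjusted p = 0.00131, and -0.09 with library totals). Slc25a28 was the larger of the 2 in every library, and it made up 69.4% ± 1.2 of the pair in heart and 63.2% ± 2.32 in quadriceps. Slc25a37 is the form best known from red cell precursors (0.32 with library totals, adjusted p = 0.0391).

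Both carriers linked to the import of glutathione were higher in heart. Slc25a39 was at 21.7, 20.7 and 22.2 RPKM in heart and 5.84, 6.38 and 6.42 in quadriceps, with a log2 fold change of -1.04 ± 0.11 (adjusted p = 3.58e-05). Slc25a40 was at 2.09, 1.70 and 2.28 RPKM in heart and 0.987, 0.794 and 0.924 in quadriceps, with a log2 fold change of -0.42 ± 0.16 (adjusted p = 0.0394). The call of Slc25a40 was lost without any one of the libraries except the second heart library, at an adjusted p of up to 0.148, and with DESeq2 (adjusted p = 0.0925), and 10.3% of its 50-base windows occur in transcripts of other genes. Slc25a39 exceeded Slc25a40 by 10.4, 12.2 and 9.75 times in heart and 5.91, 8.03 and 6.95 times in quadriceps (log2 difference -0.63, exact permutation test, p = 0.1).

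Among the carriers that resemble uncoupling proteins, Slc25a27 (UCP4) was at 1.49, 1.31 and 1.17 RPKM in heart and 2.98, 2.92 and 3.04 in quadriceps. The groups lay apart, with a log2 fold change of 1.92 ± 0.13 (adjusted p = 1.75e-06), the second largest in favour of quadriceps. Slc25a14 was low, with 38 to 46 counts in heart and 27 to 45 in quadriceps (log2 fold change 0.78 ± 0.22, adjusted p = 0.0101, and 0.02 with library totals, adjusted p = 0.912). Slc25a30 did not pass (0.76 ± 0.31, adjusted p = 0.0528), and its first quadriceps library, at 0.868 RPKM, lay below the others at 1.90 and 2.02. Without that library it passed (1.14, adjusted p = 0.000204). The family's members under other symbols include Ucp3, the uncoupling protein of skeletal muscle, which was at 6.37 to 6.60 RPKM in heart and 34.9 to 45.5 in quadriceps (log2 fold change 3.38 ± 0.14, adjusted p = 7.2e-08). Ucp2 was higher in heart (-1.77 ± 0.14, adjusted p = 3.9e-06). Ucp1, the uncoupling protein of brown fat, had no counts in heart and 65, 1 and 0 in quadriceps, and was not tested. Cidea, another gene of brown fat, had 151, 21 and 24 counts in quadriceps against 473 to 572 in heart, so that the first quadriceps library was the highest of its tissue for both, and the part of brown fat in the values was not tested.

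Of the less defined members, Slc25a34 and Slc25a35 are closely related. Slc25a34 was at 17.3, 21.4 and 21.0 RPKM in heart and 3.49, 1.76 and 1.61 in quadriceps, with a log2 fold change of -2.38 ± 0.23 (adjusted p = 1.43e-05). Slc25a35 was at 3.45, 3.99 and 4.20 RPKM in heart and 3.35, 3.53 and 3.62 in quadriceps, and its log2 fold change of 0.60 ± 0.13 turned to -0.15 with library totals. Slc25a34 was thus 4.999 to 5.348 times as abundant as Slc25a35 in heart and 0.446 to 1.04 times in quadriceps, a log2 difference of -3.06 (exact permutation test, p = 0.1). Slc25a46, which sits in the outer membrane and takes part in shaping mitochondria, was at 16.5, 17.2 and 17.1 RPKM in heart and 15.0, 9.47 and 11.6 in quadriceps. Its CPM overlapped between the tissues (log2 fold change 0.24 ± 0.12, adjusted p = 0.108). Slc25a45 and Slc25a53 did not pass, at -0.41 (adjusted p = 0.106) and -0.77 (adjusted p = 0.148). Slc25a43 and Slc25a54 had at most 6 counts in a library and were not tested, and Slc25a48 had 0 counts in all 6 libraries.

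Genes of linked mitochondrial steps differed in both directions, and their smaller differences depend on the scaling as those of the carriers do. The counts below stand against the shares of all transcripts called. With TMM these were 32.2% higher in quadriceps and 34.4% higher in heart, and with library totals 13.3% and 62.6%. The 2 subunits of the pyruvate carrier, which is built from another protein family, were both higher in quadriceps (Mpc1 by 1.74 ± 0.25 and Mpc2 by 0.65 ± 0.11, adjusted p = 0.00022 and 0.00055), but Mpc2 was at -0.10 with library totals. Of the calcium uniporter complex 4 of 6 tested genes were higher in quadriceps, among them Micu3 (1.90 ± 0.10, adjusted p = 2e-07), and 1, Micu2, was higher in heart (-0.56 ± 0.12, adjusted p = 0.0028), while with library totals 2 were higher in each tissue. Among the outer-membrane channels and mitochondrial creatine kinases 3 of 5 were higher in quadriceps, with Vdac3 at 1.48 ± 0.10 (adjusted p = 2e-06). With library totals Vdac3 alone was higher in quadriceps, at 0.73, while Vdac2 and Ckmt1 were higher in heart, at -0.71 and -1.70. Ckmt1 had few reads, at most 17 in a library, and passed the count filter only through heart. With TMM Ckmt1 did not pass (log2 fold change -0.98, adjusted p = 0.194). The machinery that inserts carriers into the inner membrane gave 3 of 6 higher in quadriceps and 2 higher in heart, with Timm22, the pore of the insertion complex, at 0.96 ± 0.12 (adjusted p = 9.8e-05) and Timm10 at -0.64 ± 0.13 (adjusted p = 0.0016), against 0 and 5 with library totals. Of 8 genes taken as a measure of mitochondrial content, 3 were higher in heart, 2 higher in quadriceps and 3 did not pass, with a median log2 fold change of -0.36 against 0.17 over the 41 carriers, and with library totals 6 were higher in heart and 0 in quadriceps. Cox4i1, a subunit of cytochrome oxidase, was at -1.03 ± 0.12 (adjusted p = 3.9e-05).

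**Figure D4:**
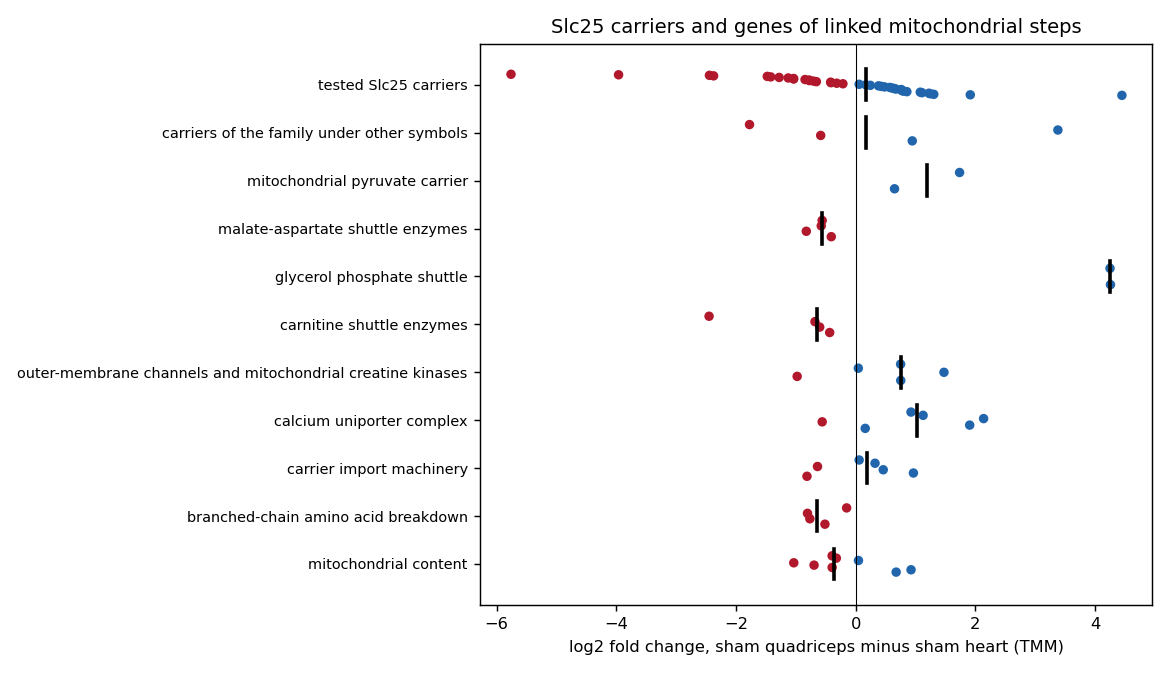
Log2 fold changes (x axis, quadriceps minus heart, TMM-scaled) of the tested Slc25 carriers and of 10 lists of linked mitochondrial genes, with 1 point per gene (blue above 0, red below) and a black bar at the median. Both genes of the glycerol phosphate shuttle lie above 4, while the enzymes of the malate-aspartate and carnitine shuttles lie below 0.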

How the data were processed

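Single-end reads of sham heart and sham quadriceps libraries were trimmed with Trim Galore, aligned with STAR to mm10 and counted on RefSeq transcripts with Rsubread by the authors, who deposited raw counts and RPKM values, the latter being counts divided by transcript length and library total. The deposited table also holds fold changes and p-values of the authors' own edgeR comparison, which were not used. Transcripts that exceeded 5 counts in 2 or more libraries entered edgeR 4.0.16 under R 4.3.3 (TMM, quasi-likelihood, Benjamini-Hochberg over 24280 transcripts). The SE is the log2 fold change divided by the square root of F. Alternatives were DESeq2 1.42.0, library totals, other count filters, limma 3.58.1 on log2 RPKM, 1 transcript per gene, a replicate block and leaving out each library. The procedure was tested on simulated data. Replicates differed by more than sampling noise (smallest chi-square divided by its degrees of freedom 7.03). Ratios of pairs used an exact permutation test in Python 3.11.15 with scipy 1.17.1. Positions come from GENCODE vM21 (GRCm38).

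The members and lists were chosen with earlier results of these data known. Values in every library are given for the 10 carriers with the highest mean RPKM, the 5 with the largest difference in each direction among those called without overlap, and both genes of each pair; other carriers are given by ranges, and single values were chosen after they were seen. P-values measure the spread between libraries, each of which the labels give as a separate sample. Some genes are not reported here.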

Additional observations from a re-analysis of the deposited data

How the results depend on the processing

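DESeq2, 1 transcript per gene and both other filters on low counts left the counts of calls within 1.5 times those given. The median log2 fold change of the carriers moved from 0.17 to 0.28 without a filter and 0.25 with at least 10 counts in every library. The set of carriers changed too, from 41 to 46 without a filter and 38 with at least 10 counts. The scaling moved more. With library totals 6 carriers were higher in quadriceps and 22 in heart, where 13.3% and 62.6% of all transcripts were called. Of these carriers 2 and 18 differed by at least 2-fold, 7 passed the study's threshold in favour of heart, and the median was -0.57. The 22 and the 18 include Slc25a18, Slc25a31 and Slc25a53, which passed the count filter only through heart. The 7 include Slc25a18 and Slc25a31. The shares of all transcripts past these stricter rules were not counted for this scaling. With limma on log2 of RPKM plus 0.5 or plus 1, 6 were higher in quadriceps, 1 of them by at least 2-fold, and 22 in heart, with medians of -0.34 and -0.28. With RPKM plus 0.1 these were 5, 2 and 22, 16 of the 22 by at least 2-fold, with a median of -0.58. The whole set of 24280 transcripts moved as well. With RPKM plus 0.5, plus 1 and plus 0.1, 18307, 17944 and 18497 were called in either direction, with medians of -0.49, -0.38 and -0.70. Of the 41 carriers, 28, 28 and 27 were called in either direction. The shares of all transcripts in each direction or by at least 2-fold were not counted for these fits. The carrier counts by direction thus have no background here. With library totals the log2 fold changes that changed sign were -0.18 for Slc25a4, -0.094 for Slc25a17, -0.31 for Slc25a20, -0.69 for Slc25a26, -0.088 for Slc25a28, -0.0066 for Slc25a30, -0.36 for Slc25a32, -0.15 for Slc25a35, -0.57 for Slc25a36, -0.0023 for Slc25a44, -0.495 for Slc25a46 and -0.27 for Slc25a51. With RPKM plus 0.5 they were -0.19 for Slc25a4, -0.13 for Slc25a17, -0.34 for Slc25a20, -0.65 for Slc25a26, -0.085 for Slc25a28, -0.044 for Slc25a30, -0.32 for Slc25a32, -0.13 for Slc25a35, -0.55 for Slc25a36, -0.016 for Slc25a44, -0.502 for Slc25a46 and -0.26 for Slc25a51. With RPKM plus 1 they were -0.19 for Slc25a4, -0.11 for Slc25a17, -0.33 for Slc25a20, -0.61 for Slc25a26, -0.079 for Slc25a28, -0.026 for Slc25a30, -0.28 for Slc25a32, -0.12 for Slc25a35, -0.51 for Slc25a36, -0.013 for Slc25a44, -0.48 for Slc25a46 and -0.24 for Slc25a51. With RPKM plus 0.1 they were -0.19 for Slc25a4, -0.15 for Slc25a17, -0.34 for Slc25a20, -0.69 for Slc25a26, -0.091 for Slc25a28, -0.073 for Slc25a30, -0.37 for Slc25a32, -0.14 for Slc25a35, -0.58 for Slc25a36, -0.019 for Slc25a44, -0.52 for Slc25a46 and -0.27 for Slc25a51. Library totals move the median of all transcripts from -0.06 to -0.80, so that each of these signs is relative to the scaling. Slc25a26 also turned, to -0.0089 with at least 10 counts in every library and to -0.020 without the second quadriceps library, where leaving out single libraries gave -0.020 to 0.15.

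Without 1 library, 16 to 20 carriers were higher in quadriceps and 12 to 14 in heart, 6 to 9 and 7 to 10 by at least 2-fold, and 1 to 2 and 4 to 5 passed the study's threshold. The median was 0.10 to 0.29. In these fits 14396 to 16503 of the 23917 to 24231 transcripts tested were called in either direction, and 28 to 33 of the 41 carriers. The shares of all transcripts by direction, by 2-fold or by the study's threshold were not counted, so that the matching carrier counts have no background here. In every one of these fits the carriers higher in heart include Slc25a31, which passed the count filter only through heart. The second carrier past the threshold in favour of quadriceps appeared without the first heart library. Libraries of the same number did not deviate together (correlations of 0.01, -0.11 and -0.03). This cannot show whether they come from 1 mouse, since different tissues of a mouse need not deviate together. The labels name no pairs, and the main fit used none. With the replicate number as a block 18 carriers were higher in quadriceps and 13 in heart, with a median of 0.16, and 15716 transcripts were called against 16182. The shares of all transcripts by direction were not counted for this fit either. Slc25a32 and Slc25a40 then missed the threshold (adjusted p = 0.0521 and 0.0517), and Slc25a30 passed it (adjusted p = 0.026). The cause of these changes was not tested.

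With 3 libraries a tissue the exact test cannot go below 0.1, and depth limits Slc25a18, Slc25a31, Slc25a47 and Slc25a53, each with under 20 counts in every library, as well as the 6 carriers not tested. The simulated data, which had 200 changed transcripts, did not include differences in scaling or tissue composition.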
